A study of Mus musculus with 4 samples.

Results

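The enzymes that release arachidonic acid and turn it into eicosanoids were followed in prostate spheres grown with or without DAPT, an inhibitor of γ-secretase, the protease complex that cleaves Notch receptors. The set held 10 genes, Pla2g4a, Alox5, Alox12, Alox12b, Alox12e, Alox15, Ptgs1, Ptgs2, Ptges and Ltc4s, and was found by matching the transcript accession of each probe to the gene symbol. It took up 16 of the 41174 probes on the array, and 9 of the 10 genes had a probe bright enough to be among the 21469 genes kept for testing. The genes were chosen by results already known from these arrays, so their DAPT against vehicle values are given as a description, with no test.

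The spheres grew from basal cells that had been isolated by flow sorting from the prostate of adult FVB mice. The 2 vehicle samples received DMSO and the 2 DAPT samples received DAPT at 5 µM, with the medium renewed every 24 h in both groups. No age, sex or time in culture is given in the sources used here, and whether the 2 samples per treatment were grown or taken from mice independently is not stated. Every p-value therefore measures only the spread between these 4 arrays, which may be technical. Each array carried sphere RNA in the red channel and a commercial universal mouse reference RNA in the green channel, and the measure used throughout is the log2 ratio of red over green after background correction and normalization within the array. After this normalization a log2 ratio of 0 means a red to green balance typical of spots of that brightness on the array. It does not mean equal raw signals. A DAPT minus vehicle difference of -1 means that the ratio with DAPT was 1 part in 2 of that with vehicle.

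Arachidonic acid sits in membrane phospholipids until a phospholipase A2 frees it. Lipoxygenases then insert oxygen to give hydroperoxy acids, the source of hydroxy fatty acids and leukotrienes, and cyclooxygenases convert it to prostaglandin H2, from which terminal synthases make the single prostanoids. Epithelia such as skin and prostate use both branches, and leukocytes and platelets are the classical sources of 5-lipoxygenase and platelet-type 12-lipoxygenase products.

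Of the lipoxygenase genes in the set, Alox12, Alox12e and Alox15 are consecutive protein-coding genes on mouse chromosome 11. Alox12b forms a second such run on that chromosome with Aloxe3 and Alox8, which are not in the set, and 64 coding genes lie between the runs. Pla2g4a and Ptgs2 are neighbours on chromosome 1. RefSeq promoter windows of build GRCm38.p6 were at hand for 9 of the 10 genes and not for Alox15. The 250 bases before the start are shown for the 4 genes whose ratios differed by 0.7 or more between the groups, so that the sequence around each start can be read beside its values. Capitals mark the letters TGGGAA, the core of the motif of RBPJ, the DNA-binding partner of cleaved Notch, on either strand (TTCCCA on the other).
Alox12, chr11:70255371-70255620, minus strand: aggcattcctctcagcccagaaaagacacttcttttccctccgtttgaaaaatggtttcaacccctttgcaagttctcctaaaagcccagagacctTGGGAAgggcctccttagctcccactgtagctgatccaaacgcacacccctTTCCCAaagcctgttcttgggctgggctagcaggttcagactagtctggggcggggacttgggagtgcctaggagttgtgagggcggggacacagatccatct
Alox12e, chr11:70322531-70322780, minus strand: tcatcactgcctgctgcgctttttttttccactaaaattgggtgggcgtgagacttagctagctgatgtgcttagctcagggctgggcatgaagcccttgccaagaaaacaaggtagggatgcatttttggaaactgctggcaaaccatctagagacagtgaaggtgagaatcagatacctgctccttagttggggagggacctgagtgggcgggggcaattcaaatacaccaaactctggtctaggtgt
Ptgs1, chr2:36230176-36230425, plus strand: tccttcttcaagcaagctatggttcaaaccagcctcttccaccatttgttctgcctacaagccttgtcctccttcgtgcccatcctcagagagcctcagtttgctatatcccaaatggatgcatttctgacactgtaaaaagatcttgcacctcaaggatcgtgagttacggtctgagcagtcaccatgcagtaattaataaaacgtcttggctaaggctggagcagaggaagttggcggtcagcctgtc
Ptges, chr2:30903298-30903547, minus strand: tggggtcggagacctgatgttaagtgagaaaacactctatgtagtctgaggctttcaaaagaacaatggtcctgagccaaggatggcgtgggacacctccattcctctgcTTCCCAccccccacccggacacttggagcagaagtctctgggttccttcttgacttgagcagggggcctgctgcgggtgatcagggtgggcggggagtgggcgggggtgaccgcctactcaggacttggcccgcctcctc
The Alox12 window held these letters at 154 and 103 bases before the start, and the Ptges window at 140 bases. The Ltc4s window held them at 79 bases. They were not found in the windows of Alox12e, Ptgs1, Ptgs2, Alox5, Alox12b or Pla2g4a. Of all 32851 windows of 250 bases, 21.6% hold TGGGAA on either strand, so a match is common. The AP-1 letters TGANTCA were in 6.75% of all windows and in none of these genes' windows. A match is a description of the letters in the window.

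The arrays of a group correlated at 0.921 for vehicle and 0.943 for DAPT across genes, against 0.838 to 0.878 between groups. In red, 63.7% to 69.5% of probe spots per array passed the scanner software's call of well above background, and no spot was saturated. Raw signals were brighter on the DAPT arrays as a whole, with a median red signal of 2.40 to 2.84 times background against 1.83 to 1.95 on the vehicle arrays, so raw signals are given only to show how far a spot lay above background. The scanner software marked 49.6% and 50.9% of probe spots on the DAPT arrays as non-uniform or outlying, against 11.5% and 29.2% on the vehicle arrays. In the limma fit over all genes, 6.81% had an adjusted p under 0.05 (Benjamini-Hochberg), 2.82% higher and 4.0% lower with DAPT, and the median difference was -0.06. Without any test, 53.8% of genes had both DAPT arrays on one side of both vehicle arrays.

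With DAPT, the ratios of Alox12 and Alox12e were far below those with vehicle, Ptgs1 and Alox15 were lower by less, and Ptges was higher. For Alox5 and Ptgs2 the arrays of both groups overlapped. Beside the shares above, 3 of the 9 kept members (Alox12, Alox12e and Ptgs1) were among the genes called lower, and 7 of the 9 had groups that did not overlap. The median difference of the 9 was -0.37. These counts follow from how the genes were chosen, and nothing is read from them.

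**Figure D1:**
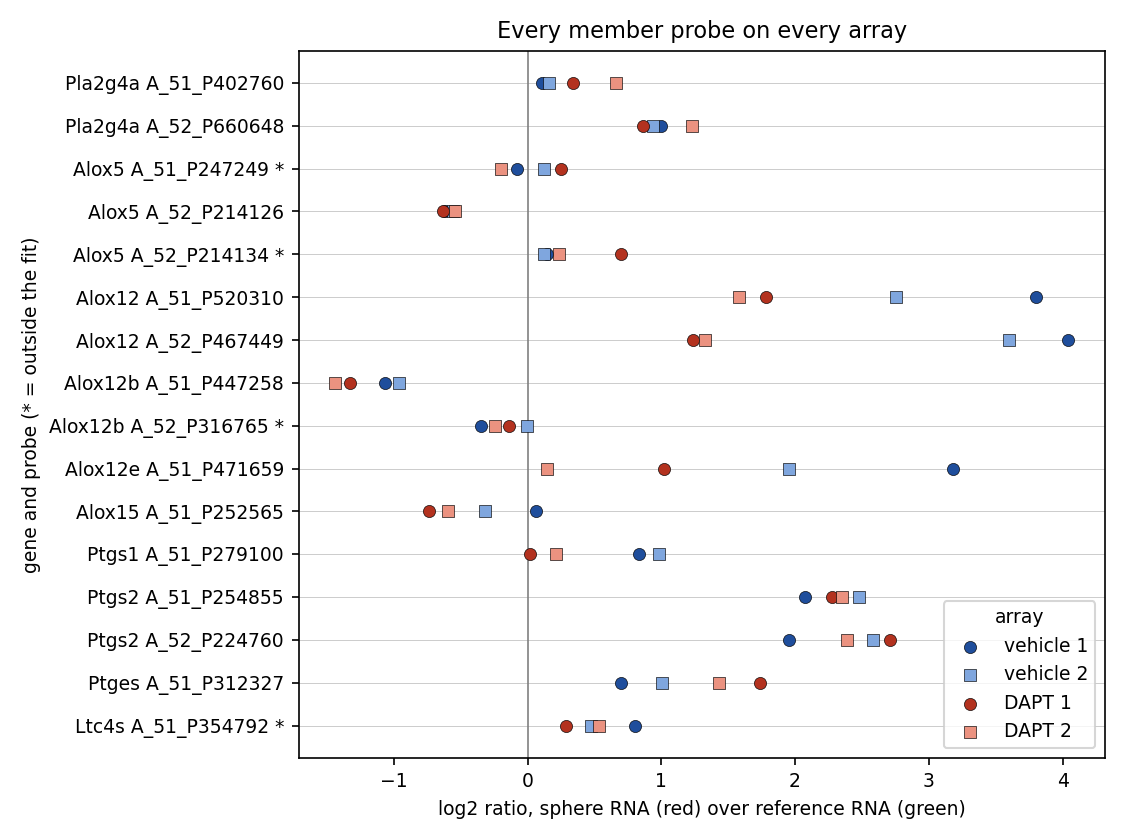
Log2 ratio of sphere RNA over reference RNA on the x axis for each probe (y axis) of the eicosanoid enzymes, with 1 point for each of the 4 arrays. Both Alox12 probes, Alox12e, Alox15 and Ptgs1 have their DAPT points to the left of (below) their vehicle points, and Ptges has them to the right.

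Pla2g4a encodes cytosolic phospholipase A2α, which frees arachidonic acid from membranes when calcium rises. Its brighter probe (A_51_P402760) had log2 ratios of 0.10 and 0.16 on the vehicle arrays and 0.34 and 0.66 on the DAPT arrays. The groups did not overlap, and the difference was 0.37 ± 0.20 (SE of the fit over all probes, as for every member below). In the red channel alone the difference was 0.04, with green lower by 0.33 (difference -0.33), so nearly all of it lay in the reference channel. The other probe of the gene (A_52_P660648) read 1.00 and 0.94 with vehicle and 0.86 and 1.23 with DAPT. There the groups overlapped, and the difference was 0.08 ± 0.20.

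Alox12, the platelet-type 12-lipoxygenase, makes 12-hydroperoxy acid from arachidonic acid. Its brighter probe (A_52_P467449) had log2 ratios of 4.04 and 3.60 with vehicle and 1.24 and 1.33 with DAPT. Vehicle averaged 3.82 ± 0.31 (SD, n = 2) and DAPT 1.28 ± 0.06 (SD, n = 2). The difference of -2.54 ± 0.21 corresponds to a ratio 5.81-fold lower with DAPT. Raw red signals of this spot were 594 and 497 on the vehicle arrays and 158 and 167.5 on the DAPT arrays, over a local background of 59.0 to 64.0, so the spot was dimmer in sphere RNA although the DAPT arrays were brighter as a whole.

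A second Alox12 probe (A_51_P520310) read 3.80 and 2.76 with vehicle and 1.78 and 1.58 with DAPT. Both probes were well above background in red on all 4 arrays and separated the groups in the same direction. The difference of the second was -1.60 ± 0.28, or 3.03-fold, and its green signal was well above background on only 1 of the 4 arrays, so its ratio rests on a dim reference. Split by channel, the brighter probe differed by -2.36 in red and 0.18 in green, and the second by -1.53 in red and 0.07 in green. For both probes the difference lay in the sphere RNA.

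Alox12e encodes the epidermal-type 12-lipoxygenase of the mouse. Its only probe (A_51_P471659) read 3.18 and 1.96 with vehicle and 1.02 and 0.14 with DAPT. The vehicle arrays were both higher, and the spread inside a group was wide, with an SD of 0.87 for vehicle and 0.62 for DAPT. Raw red signals were 537 and 233.5 with vehicle and 174 and 152 with DAPT. The difference was -1.99 ± 0.34, or 3.96-fold lower, with -1.74 in red and 0.25 in green. Leaving out 1 array at a time gave differences from -2.60 (without vehicle 2) to -1.37 (without vehicle 1).

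Alox15, the 12/15-lipoxygenase, lies next to Alox12e on the chromosome. Its log2 ratios were 0.07 and -0.32 with vehicle and -0.74 and -0.60 with DAPT. The groups did not overlap, and the difference was -0.54 ± 0.21. It ranged from -0.73 (without vehicle 2) to -0.35 (without vehicle 1) when 1 array was left out. Raw red signals were 159.5 and 129 with vehicle and 177 and 167 with DAPT, well above background on all 4 arrays. The difference in red alone was -0.38. Alox12, Alox12e and Alox15 are related in sequence. The probe sequences were not used here, and whether their probes read each other's transcripts was not tested.

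Alox12b encodes the 12R-lipoxygenase of the skin barrier. Its bright probe (A_51_P447258) read -1.06 and -0.96 with vehicle and -1.33 and -1.44 with DAPT. The difference of -0.37 ± 0.19 did not keep its direction under other scalings, being 0.04 after median centring and 0.18 from the scanner software's own background-subtracted and dye-normalized (processed) signals. The other probe (A_52_P316765) was not well above background in red on any array, and its ratios ran from -0.35 to -0.0050.

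Alox5, the 5-lipoxygenase that starts leukotriene synthesis, had a bright probe (A_52_P214126) with ratios of -0.62 and -0.56 with vehicle and -0.63 and -0.54 with DAPT. These 4 values overlapped, and the difference was -0.0015 ± 0.19. Red and green were each 0.31 higher on the DAPT arrays after normalization between arrays. Of the other Alox5 probes, A_51_P247249 was well above background in red on 1 array and A_52_P214134 on 2. Their differences were 0.0016 ± 0.21 and 0.33 ± 0.21.

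**Figure D2:**
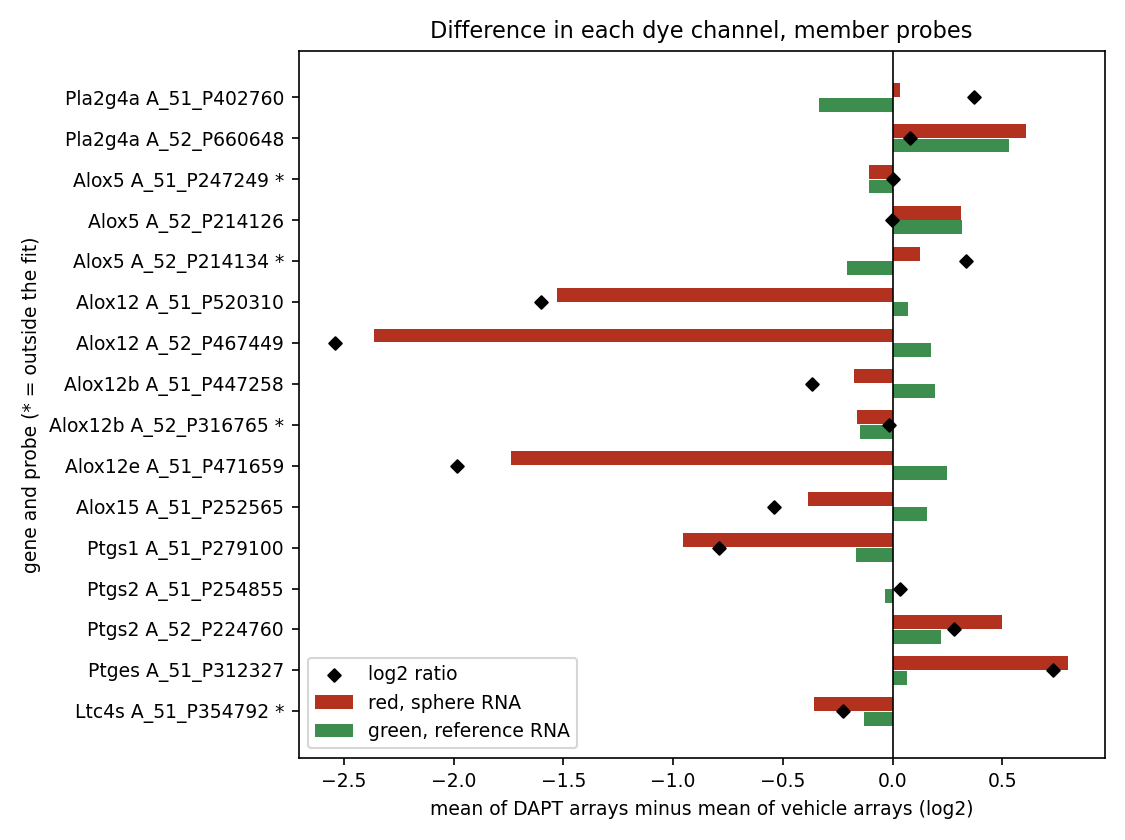
DAPT minus vehicle difference on the log2 scale for the red channel (sphere RNA) and the green channel (reference RNA) of each member probe, after loess and Aquantile normalization. The differences of Alox12, Alox12e, Ptgs1 and Ptges lie mainly in red, that of the brighter Pla2g4a probe in green, and those of the bright Alox5 probe are equal in both.

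Ptgs1 encodes cyclooxygenase-1, the form most tissues make at a steady level. Its log2 ratios were 0.83 and 0.99 with vehicle and 0.02 and 0.21 with DAPT. Both DAPT arrays lay below both vehicle arrays, at means of 0.91 ± 0.11 and 0.12 ± 0.14 (SD, n = 2 each). The difference was -0.79 ± 0.20, or 1.73-fold lower, with -0.96 in red and -0.17 in green.

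Ptgs2, cyclooxygenase-2, is the form induced by growth factors and inflammation. One of its probes (A_51_P254855) was printed at 10 spots on every array, and their means were 2.07 and 2.48 with vehicle and 2.27 and 2.35 with DAPT. The DAPT arrays lay between the vehicle arrays. Spots of 1 array differed among themselves with an SD of 0.14, 0.29, 0.21 and 0.26 in the same order of arrays. These are SDs of single spots. A mean of 10 spots varies less, so they do not measure the gaps between the array means. These spots share 1 RNA sample and are not replicates of a treatment.

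The difference for this Ptgs2 probe was 0.03 ± 0.21. It had no steady sign, and was -0.17 without vehicle 1, 0.24 without vehicle 2 and -0.47 after scale normalization between arrays. The other Ptgs2 probe (A_52_P224760) read 1.95 and 2.59 with vehicle and 2.71 and 2.39 with DAPT, a difference of 0.28 ± 0.23 with overlapping groups. Cyclooxygenase-1 was thus lower with DAPT by more than the spread between arrays of a group and cyclooxygenase-2 was not. The difference between these 2 genes was not tested.

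**Figure D3:**
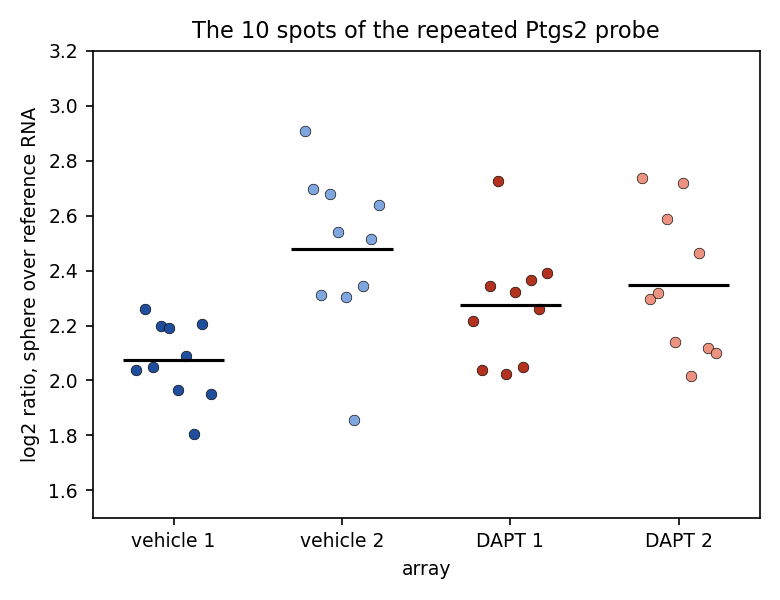
Log2 ratio of each of the 10 spots of the Ptgs2 probe A_51_P254855 on each of the 4 arrays, with the mean of each array. The clouds of spots overlap between all arrays, and the DAPT means of 2.27 and 2.35 fall between the vehicle means of 2.07 and 2.48.

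Ptges encodes microsomal prostaglandin E synthase-1, which turns prostaglandin H2 into prostaglandin E2 and usually works beside cyclooxygenase-2. Its log2 ratios were 0.70 and 1.00 with vehicle and 1.74 and 1.43 with DAPT. Both DAPT arrays were higher, and raw red signals were 371.5 and 428 with vehicle against 1518.5 and 1039.5 with DAPT. The difference was 0.73 ± 0.21, or 1.66-fold higher, with 0.80 in red and 0.07 in green. It was 0.47 after scale normalization between arrays and 1.22 from the processed signals.

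Ltc4s, the leukotriene C4 synthase, was near the limit of the array. It was well above background in red on 1 vehicle array and no DAPT array, which left it outside the fit. The ratios were 0.80 and 0.47 with vehicle and 0.29 and 0.53 with DAPT, overlapping between groups, with a difference of -0.23 ± 0.21. Raw red signals of 87.0 to 101 stood over local backgrounds of 57.0 to 65.5, so a change in this gene was not detectable at this brightness.

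The rest of the pathway was taken from a list of 79 further genes for phospholipases, synthases, degrading enzymes and receptors, of which 72 were on the array and 56 entered the fit. Of these 56, 7 fell and none rose (limma, adjusted p under 0.05 over all genes). The share of 12.5% called stands beside 6.81% of all genes called in either direction and 4.0% called lower. Hpgd is counted among the 7 although it entered the fit only through the vehicle group, where it was brighter. The median difference of the 56 was -0.22, beside -0.06 for all genes. At an unadjusted p under 0.05, 2 of the 56 were higher and 14 lower, beside 2144 higher and 2828 lower among all 21469 genes. In 32 of the 56 the groups did not overlap, which is 57.1% against 53.8% for all genes.

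**Figure D4:**
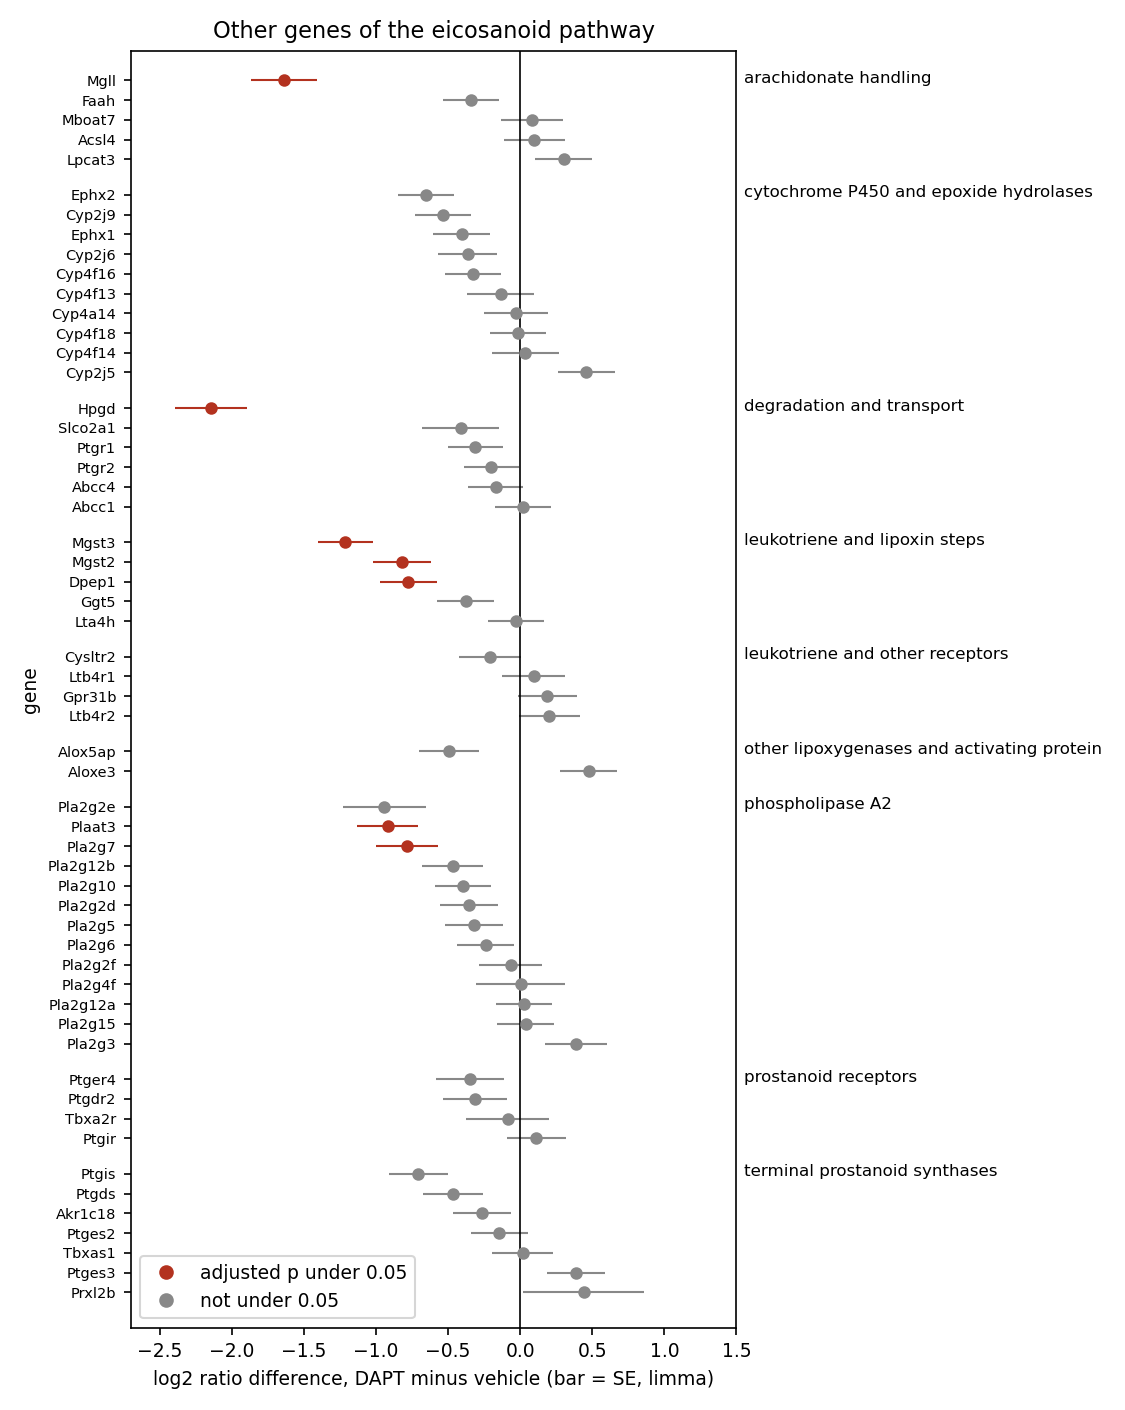
DAPT minus vehicle difference of the log2 ratio with its standard error for the other eicosanoid genes in the fit, by role. The 7 that passed the test all lie below 0, from Hpgd at -2.14 to Dpep1 at -0.77. The Hpgd probe was well above background in red on only 1 of the 2 DAPT arrays.

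Hpgd, the 15-hydroxyprostaglandin dehydrogenase that inactivates prostaglandin E2, had the largest change among the 7 in this fit. Its ratios were 2.30 and 2.01 with vehicle and 0.38 and -0.35 with DAPT. The change was -2.14 ± 0.25 (limma adjusted p = 0.000373), or 4.42-fold. This probe was well above background in red on both vehicle arrays and on 1 of the 2 DAPT arrays, so it entered the fit only through the vehicle group and its fold rests on a dim DAPT signal. A second Hpgd probe was not well above background in red on either DAPT array, at normalized log2 red means of 7.74 with vehicle and 6.19 with DAPT. With DAPT values raised to the dimmest red signal called well above background on each array, its red signal was 2.38-fold lower with DAPT. This value is from the red channel alone after loess and Aquantile normalization, with no swapped dyes. Undetected spots can read above that level (Cysltr2 below, mean 6.96 with vehicle), so the 2.38-fold is not a lower bound.

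Mgll, the monoacylglycerol lipase that yields arachidonic acid from 2-arachidonoylglycerol, had ratios of 2.03 and 1.41 with vehicle and 0.03 and 0.14 with DAPT. It fell by 1.64 on the log2 scale (SE 0.23, limma adjusted p = 0.00134), and its second probe differed by -1.50. Of this change in the first probe, -0.90 lay in red and 0.74 in green. The second probe differed by -1.56 in red. It was well above background in red on both vehicle arrays and on 1 of the 2 DAPT arrays. It thus passed the brightness filter only through the vehicle group, and its differences rest on a dim DAPT signal.

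Among the leukotriene steps, 3 of 5 genes fell. Mgst3, a membrane glutathione transferase that can form leukotriene C4, read 2.98 and 2.95 with vehicle and 1.77 and 1.73 with DAPT, a change of -1.21 ± 0.19 (limma adjusted p = 0.00308). Its relative Mgst2 changed by -0.82 ± 0.20 (limma adjusted p = 0.0286). Dpep1, a dipeptidase that converts leukotriene D4 to E4, changed by -0.77 ± 0.20 (limma adjusted p = 0.0339). For Mgst2 and Dpep1 a large part lay in the reference, with 0.33 and 0.39 in green beside -0.49 and -0.39 in red.

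Among the phospholipases, 2 of 13 fell. Plaat3, a phospholipase A of fat and other tissues, changed by -0.92 ± 0.21 (limma adjusted p = 0.0219), with -0.49 in red and 0.43 in green. Pla2g7, which hydrolyses platelet-activating factor, changed by -0.78 ± 0.22 (limma adjusted p = 0.0491), with -1.08 in red. Pla2g2e, a secreted phospholipase, had a difference of -0.94 ± 0.29 that did not pass (limma adjusted p = 0.0703). It was -0.41 without vehicle 1 and -1.47 without vehicle 2, and it passed in 5 of 13 alternatives, over adjusted p-values of 0.000664 to 0.431.

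Leaving out 1 array ended some of these calls. Mgst2 lost its call without vehicle 1 or DAPT 1, Dpep1 and Pla2g7 without vehicle 2, DAPT 1 or DAPT 2, and Plaat3 without DAPT 2. From the processed signals the changes in Hpgd, Mgll and Plaat3 were -3.91, -2.83 and -2.41, and Mgst3 (-0.69), Mgst2, Dpep1 and Pla2g7 lost their calls. Over all 13 alternatives run for each, Pla2g7 lost its call in 10 and Mgst2 and Dpep1 in 7. In red alone none of the 7 passed limma's test, and only Hpgd did when 13 spots of DAPT 2 with a very high local background were kept. Without DAPT 1, 4 of the 56 genes fell. Without vehicle 1, Prxl2b, a prostamide synthase, was called higher at 1.32, against 0.44 ± 0.42 with all arrays.

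In the other roles no gene passed. The difference farthest from 0 was -0.71 ± 0.20 for the prostacyclin synthase Ptgis (limma adjusted p = 0.0564; well above background in red on 1 DAPT array), -0.65 ± 0.19 for the soluble epoxide hydrolase Ephx2 (0.0621) and -0.49 ± 0.21 for Alox5ap (0.181), the protein that presents arachidonic acid to 5-lipoxygenase. Aloxe3, the partner of Alox12b in the skin barrier, was at 0.48 ± 0.20 (0.174). Of the 9 prostanoid receptors listed 4 entered the fit, with Ptger4, a prostaglandin E2 receptor, at -0.35 ± 0.24 (0.416). Of the 7 leukotriene and related receptors 4 entered it, with Cysltr2, a cysteinyl leukotriene receptor, at -0.21 ± 0.22 (0.615). Cysltr2 was not well above background in red on either vehicle array, so this difference is not a measured one. As read, its red signal alone was 1.32-fold higher with DAPT (normalized log2 red means of 6.96 and 7.37), and its green signal was higher by 0.61. With the vehicle red signal this dim, the 1.32-fold is not a lower bound. Alox8 and the receptors Ptger2, Ptger3, Ptgfr, Ptgdr, Cysltr1 and Fpr2 had probes but did not pass the brightness filter.

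The 5 named genes whose centred profile over the 4 arrays lay nearest to that of Alox12 were Postn, Ctla2a, Glul, Slc40a1 and Sparc, at root mean squared differences of 0.11, 0.12, 0.17, 0.18 and 0.20 on the log2 scale. Postn (periostin, a matrix protein) had ratios of 2.27 and 1.96 with vehicle and -0.42 and -0.14 with DAPT. With 4 arrays, likeness of this kind is a description.

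Markers of other cell types were read beside these results. The basal keratin genes Krt5 and Krt14 had log2 ratios of 3.88 to 5.17 on all arrays, and of 5 basal markers only Krt15 passed the test (-1.08). Of 8 fibroblast and smooth muscle markers 5 fell (Col1a1, Col1a2, Col3a1, Dcn and Myh11). Acta2 (-0.04), Pdgfra (-0.40) and Lum (0.16) did not pass the test. The summed red signal of the list was 16.14 to 16.34 with vehicle and 15.75 to 15.90 with DAPT on the log2 scale. Acta2 alone was at 15.52 to 15.82 and made up most of this sum, so the sum says little of the genes that fell. The part of these markers in the lower values of Alox12, Alox12e, Ptgs1, Hpgd and the other genes was not tested. In bulk RNA fewer cells of a type and less RNA per cell cannot be told apart.

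None of the 9 leukocyte markers measured passed the limma test (1 at an unadjusted p under 0.05), and their summed red signal overlapped, at 11.62 to 11.89 with vehicle and 11.45 to 11.83 with DAPT. Of 4 platelet markers Gp9 was not well above background on any array, and the ratio of Itga2b fell (-1.09). Normalized log2 red signals of Itga2b overlapped, at 11.93 and 12.64 with vehicle and 12.36 and 12.01 with DAPT. The lower Itga2b ratio thus lay mainly in the reference channel. Ppbp (-0.74, limma adjusted p = 0.0743) and Pf4 (-0.28) were also below 0. The summed signal of the platelet markers overlapped at 12.74 to 13.48 against 12.61 to 12.86. Of 5 mast cell markers Cpa3 was not well above background on any array, and Kit fell (-1.35). Mcpt4 (-0.53), Tpsb2 (0.0041) and Ms4a2 (-0.014) did not pass the test, and the sums were 10.57 to 10.74 against 10.21 to 10.57. Of the 4 luminal markers in the fit (Krt8, Krt18, Krt19 and Cd24a) Krt19 fell (-1.11) and the other 3 were below 0 without passing the test. The summed red signal of these 4 was 16.65 to 17.44 with vehicle and 16.39 to 16.53 with DAPT. That of the 5 basal markers was 16.92 to 17.76 with vehicle and 16.84 to 16.92 with DAPT. The basal ranges overlapped at their edge, and the luminal ranges did not overlap. Of 4 endothelial markers Cdh5, Kdr and Tek were not well above background on any array, and Pecam1 did not pass the test. Their part in the eicosanoid values was not tested.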

How the data were processed

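RNA of 4 sphere samples, 2 with vehicle and 2 with DAPT, was measured on 4 arrays with 2 colours, all with sphere RNA in red, and the titles gave each sample's group and number. The genes and lists were chosen with earlier results of these data known. Per the file headers, Agilent Feature Extraction 10.7.3.1 gave, for red and green, an unnormalized median pixel intensity of the spot and of its surroundings, and processed intensity values that were background-subtracted and dye-normalized. The files' deposited log10 values, red over green, were read only to find the direction of the authors' value table. That deposited table holds log2 values of sample over reference, with column medians of 0.00072, -0.011, -0.015 and -0.011. It correlated at 0.869 to 0.902 with the scanner ratio and above 0.999 with the ratios computed here. Its centring and normalization are not given in the sources used here.

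In R 4.3.3 with limma 3.58.1, background was corrected with normexp (offset 50), loess was fitted within arrays with control spots at weight 0, and spots of a probe were averaged. On DAPT 2, 13 spots with a local background over 5 times the array median were left out. Marked spots were kept. Of 41174 probes, 24375 were named through RefSeq accessions of GRCm38.p6. A probe stayed in if the scanner software found it well above background in red on each array of 1 or both groups, and a gene was represented by its brightest such probe (21469 genes, 13992 named). The DAPT against vehicle fit used lmFit and eBayes, two-sided, with Benjamini-Hochberg adjustment over all genes and a threshold of 0.05. It has 2 residual degrees of freedom a gene and 10.5 from the prior. Channel values came from Aquantile normalization. The array number limits the precision. The code was tested on simulated data.

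Named were all members with every probe, every other pathway gene that passed, the gene with the largest absolute difference in each role, and the 5 nearest profiles. Aloxe3, Prxl2b and the genes under the brightness filter were named after their values were seen. Deviations from the group means of arrays with the same number correlated at 0.0857, so the numbers were not taken as pairs. The arrays share 1 slide. A further luminal marker is not reported here.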

Additional observations from a re-analysis of the deposited data

How the results depend on the processing

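The members' directions held under every alternative run for Alox12, Alox12e, Alox15, Ptgs1, Ptges and Pla2g4a, and not for Alox5, Alox12b and Ptgs2. There were 14 alternatives for Alox12 and Alox12e and 13 for Alox15, Ptgs1, Ptges and Pla2g4a. The probes of Alox15, Ptgs1, Ptges and Pla2g4a were marked by the scanner software on 2 to 4 arrays. These genes thus had no value when marked spots were left out. Alox12 ranged from -3.10 (scale normalization) to -1.60 (marked spots left out, which leaves its dimmer probe), Alox12e from -2.60 to -1.37, Alox15 from -0.73 to -0.33, Ptgs1 from -0.96 to -0.56, Ptges from 0.47 to 1.22 and Pla2g4a from 0.04 (red alone) to 0.80. Ptgs2 was -0.32 with the high-background spots kept.

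Counts of called genes moved with the processing, from 605 higher and 858 lower (41.4% higher). Median centring gave 1220 and 531 (69.7% higher, with the median of all genes at 0.11 in place of -0.06) and 2 other eicosanoid genes higher (Lpcat3 and Ptges3). Scale normalization gave 372 higher and 984 lower (27.4% higher). Processed signals gave 283 and 336, and the sample channel alone 0 and 1, with 2617 genes at an unadjusted p under 0.05. In that channel 0 other eicosanoid genes passed limma in either direction (2 higher and 6 lower at an unadjusted p under 0.05). Keeping the high-background spots gave 4 and 80, with 1 other eicosanoid gene lower. Leaving out marked spots gave 165 and 71 of 3950 genes, 69.9% higher, and 2 of the 9 other eicosanoid genes still tested were lower. The cause of these shifts was not tested, except that the last alternative tests fewer genes.

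Without 1 array at a time, 420 to 803 genes were higher and 622 to 1041 lower, and 0 to 1 other eicosanoid genes were higher and 4 to 7 lower. A lone array is there assumed to vary like the other group. With the replicate number as a block, 873 genes were higher and 1184 lower, and 9 other eicosanoid genes were lower, with Pla2g2e and Ptgis added. Hpgd was not called from the sample channel alone (limma adjusted p = 0.203) and was not tested with the filter on all 4 arrays, which it did not pass. It was called under the others. Signals near background limit what can be said of Ltc4s, Hpgd and the dimmer probes.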
